A study of Mus musculus with 32 samples.

Results

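Mitochondrial ribosomal protein genes were followed in microglia of rTg4510 mice, a tau transgenic line, and of wild type (WT) mice. The members are the protein-coding genes whose symbol starts with Mrpl or Mrps and a digit, without pseudogenes, and they comprise 78 of the 18588 genes in the deposited table. By symbol, 49 belong to the large subunit (Mrpl) and 29 to the small subunit (Mrps).

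The mitochondrial ribosome translates the few proteins that are encoded by mitochondrial DNA, which are core subunits of the respiratory chain and of ATP synthase. Its RNA comes from the mitochondrial genome, while its proteins are encoded in the nucleus, made in the cytosol and imported. Many of these proteins have a counterpart in the bacterial ribosome, and others were added in the course of mitochondrial evolution. Microglia are the resident macrophages of the brain.

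Libraries had been made at 2, 4, 6 and 8 months of age from females of strain rTg4510, labelled transgenic, and from wild type females of strain 129/FVB F1. The rTg4510 mice carry human P301L tau behind a tetracycline-responsive element and a CaMKIIα-driven transactivator, so that tau is made in forebrain neurons and not by a microglial promoter. The WT littermates carry neither transgene, so the effects of tau and of the transactivator cannot be told apart. Each library was made from CD11b bead-captured cells of the pooled forebrains of 8 to 10 animals. Of 32 libraries, 28 were used. Each genotype had 4 of them at the ages of 2 and 6 months, and 3 at the ages of 4 and 8 months. The study had dropped replicate 3 of both 4-month groups and replicate 4 of both 8-month groups after RNAseq QC. In bulk libraries, fewer cells of a type and less RNA per cell cannot be told apart.

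The microglial markers Cx3cr1, Tmem119 and P2ry12 had mean log2 signals of 13.57, 11.36 and 10.62, while 4 of the 8 listed neuronal markers were among the genes measured. The library median was 5.63 throughout. The study states 1 approximate read depth for all its libraries, while read totals per library were not analysed here. On the linear scale, 39.0% to 46.4% of the total in WT libraries lay in their 10 strongest genes, and 30.3% to 40.1% in rTg4510 libraries.

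Signals are on a log2 scale and are not divided by gene length, so levels are compared between groups and not between genes. A log2 fold change is rTg4510 against WT, with its standard error (SE), from limma's linear model with 8 group means. The false discovery rate (FDR) is Benjamini-Hochberg adjusted over all 18588 genes of a contrast. A member was called when its FDR was under 0.05 and its change exceeded 1.5 fold, the thresholds of the study.

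The mean over the members was slightly higher in rTg4510 microglia from 4 months on, although 66, 59 and 67 of the 78 members did not pass the test at 4, 6 and 8 months. Averaged over the 78 members, the WT libraries of 4 months lay at 5.81, 5.74 and 5.70 and the rTg4510 libraries at 5.88, 5.95 and 5.92. At 6 months the WT libraries lay at 5.66, 5.72, 5.74 and 5.66 and the rTg4510 libraries at 5.86, 5.90, 5.95 and 5.81. At 8 months the WT libraries lay at 5.54, 5.54 and 5.65 and the rTg4510 libraries at 5.68, 5.72 and 5.76. At each of these 3 ages every rTg4510 library was above every WT library, whereas at 2 months the genotypes overlapped, with 5.78 ± 0.0556 in WT and 5.82 ± 0.0748 in rTg4510 (SD, n = 4 each).

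The group means differed by 0.0446, 0.169, 0.186 and 0.147 at 2, 4, 6 and 8 months on the log2 scale. The mean over all protein-coding genes differed by 0.0012, -0.0237, -0.0426 and -0.0122. In WT the mean over the members went from 5.78 at 2 months to 5.75, 5.69 and 5.58 at 4, 6 and 8 months. In rTg4510 it went from 5.82 to 5.92, 5.88 and 5.72.

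**Figure D1:**
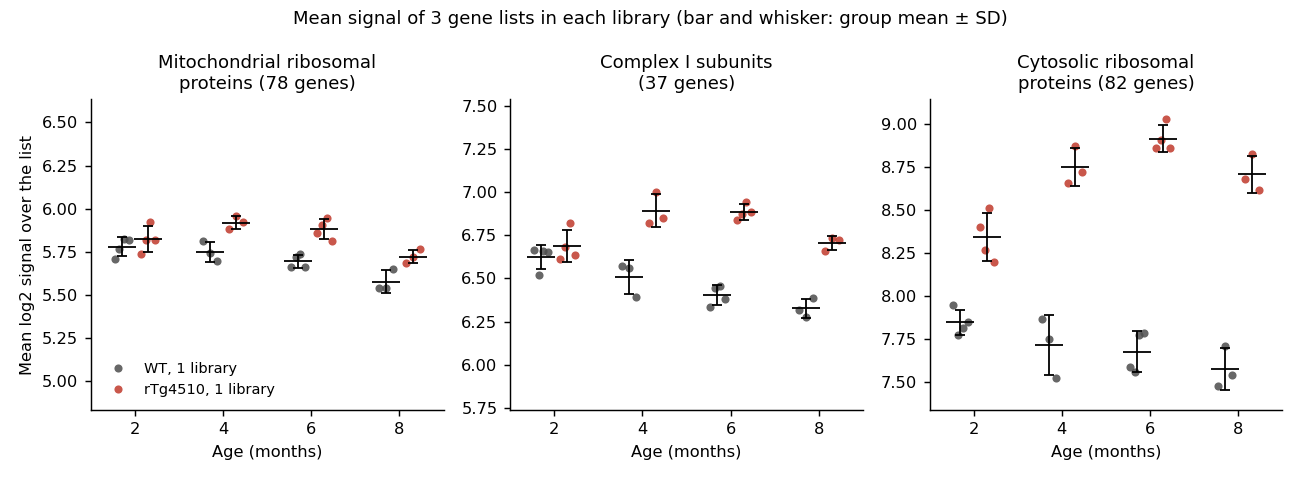
Mean log2 signal over the mitochondrial ribosomal proteins, the complex I subunits and the cytosolic ribosomal proteins (y axis) against age in months (x axis), with 1 point per library, WT in grey and rTg4510 in red. The bar and whisker give the group mean ± SD, and the 3 panels span the same number of log2 units. The genotypes lie apart at 4, 6 and 8 months in each panel, with 5.69 and 5.88 as the means over the 78 members at 6 months.

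Of the 78 members, 2 rose at 2 months (FDR under 0.05 in limma's model, 2.56% of the members against 4.76% of all genes tested), and 0 fell (1.27% of all genes). At 4 months 11 rose (14.1% of the members, 14.1% of all genes) and 1 fell (9.1% of all genes). At 6 months 19 rose (24.4% of the members, 19.1% of all genes) and 0 fell (14.9% of all genes). At 8 months 10 rose (12.8% of the members, 16% of all genes) and 1 fell (9.78% of all genes). The share of members that rose was therefore near that of all genes, and few members fell.

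With the 1.5 fold limit, 0, 6, 3 and 3 members were called higher at 2, 4, 6 and 8 months, where 1.58%, 9.47%, 11.3% and 10.5% of all genes were. Called lower were 0 members at each age, where 0.403%, 4.33%, 8.54% and 5.37% of all genes were. At 2 months, where 0 members were called by limma, 7 members (8.97%) had an unadjusted p under 0.05, against 16.5% of all genes. In total 8 members (10.3%, against 25.1% of all genes) were called at 1 or more ages. The FDR was passed at 1 or more ages by 25 members (32.1%, against 41.7% of all genes) and at none by 53.

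The median log2 fold change over the members was 0.04, 0.16, 0.18 and 0.13 at 2, 4, 6 and 8 months, beside 0.01, -0.04, -0.04 and -0.01 over all genes. With each library's trend over transcript length removed, a correction chosen after the data were seen, it was 0.02, 0.11, 0.10 and 0.03. Without that correction, leaving out 1 library moved the median at 2 months to between 0.03 and 0.08, with the highest value without rTg4510 replicate 1. At 8 months it was 0.08 without WT replicate 1 and 0.21 without WT replicate 3. The log2 fold change was above 0 in 49, 59, 61 and 56 of the 78 members. The increases that passed the FDR at 6 months ran from 1.22 to 1.78 fold, and the members that did not pass it lay between 0.74 and 1.38 fold.

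**Figure D2:**
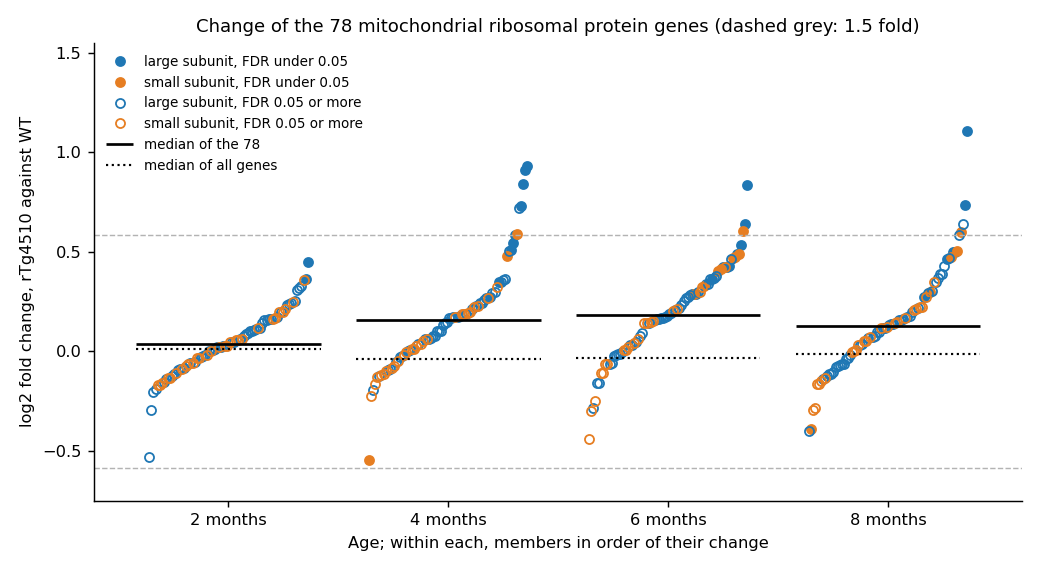
Log2 fold change of each of the 78 members, rTg4510 against WT (y axis), at 4 ages (x axis, members ordered by change within an age). Blue circles are large and orange circles small subunit genes by symbol, filled where the FDR is under 0.05. The solid line is at the median of the members, the dotted line at that of all genes and dashed lines at 1.5 fold. At 4, 6 and 8 months the median of the members (0.16, 0.18 and 0.13) lies above that of all genes.

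The subunit was taken from the symbol alone. At 4 months 9 of 49 large and 2 of 29 small subunit genes rose (14.1% of all genes), with medians of 0.17 and 0.03. At 6 months 11 large and 8 small subunit genes rose (19.1% of all genes), with medians of 0.19 and 0.15. At 8 months 6 large and 4 small subunit genes rose (16% of all genes), with medians of 0.14 and 0.12. The difference between subunits was not tested. Of the 48 members with a counterpart in bacterial ribosomes 12 rose at 6 months (median 0.22). Of the 30 without one 7 rose (median 0.17). Mrps36, which has since been assigned to another complex, is counted here among the small subunit genes and those without a counterpart that rose.

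The proteins without a bacterial counterpart include Mrpl52, which had the largest increase of any member at 6 and at 8 months. At 8 months its log2 signal was 5.93, 5.68 and 5.78 in the WT libraries and 6.88, 6.92 and 6.90 in the rTg4510 libraries. The genotypes lay apart by more than the range of either, with a log2 fold change of 1.11 (SE 0.152, FDR 8.22e-06, limma), or 2.15 fold. At 6 months it was 5.91, 6.03, 6.32 and 6.31 in WT and 6.90, 6.81, 7.25 and 6.96 in rTg4510, with a log2 fold change of 0.84 (SE 0.132, FDR 3.41e-05). The change was 0.16 at 2 months (FDR 0.628) and 0.55 at 4 months (FDR 0.0115), where it lost significance without WT replicate 4 (FDR 0.0774). Mrpl52 lies at chr14:54426909-54429750 (GRCm38.p6).

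Mrpl54, another large subunit protein of mitochondria only, was called at 4 and 8 months. At 4 months it had log2 signals of 4.43, 4.26 and 4.26 in WT and 5.03, 5.30 and 5.15 in rTg4510. All rTg4510 libraries lay above all WT libraries, and the log2 fold change was 0.84 (SE 0.178, FDR 0.00124). At 8 months the values were 4.39, 4.29 and 3.88 in WT and 5.07, 4.89 and 4.80 in rTg4510, and the difference on the log2 scale was 0.73 (SE 0.178, FDR 0.00354). At 6 months the genotypes overlapped, and the change was 0.49 (FDR 0.0174). That increase was lost without rTg4510 replicate 2 or WT replicate 1 (highest FDR 0.0749).

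Mrpl13, whose bacterial relative L13 belongs to the early core of the large subunit, had the smallest FDR of any member. Its log2 signal at 4 months was 5.80, 5.86 and 5.90 in WT and 6.59, 6.63 and 6.53 in rTg4510. The gap between the genotypes exceeded the range within either, with a log2 fold change of 0.73 (SE 0.0789, FDR 4.25e-07), or 1.66 fold. At 2 months the genotypes overlapped (0.11, FDR 0.497). The increases at 6 and 8 months, 0.43 (FDR 3.85e-05) and 0.50 (FDR 4.71e-05), stayed under 1.5 fold.

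Mrpl12, the stalk protein that contacts the translation factors, was called at 4 months alone. It stood at 5.14, 4.77 and 4.89 in WT and at 5.87, 5.80 and 5.86 in rTg4510, where the 3 libraries were close together. The log2 fold change was 0.91 (SE 0.234, FDR 0.00643). It was 0.46 at 6 months (FDR 0.0863) and 0.07 at 8 months (FDR 0.878), and the genotypes overlapped at both ages.

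Mrpl30 and Mrpl17, both with relatives in the bacterial large subunit, were each called at 1 age. At 4 months the log2 signal of Mrpl30 was 6.35, 6.14 and 5.79 in WT and 6.56, 6.72 and 6.76 in rTg4510. WT replicate 4 was the lowest of these, and the log2 fold change of 0.59 (SE 0.111, FDR 0.000432), or 1.502 fold, was just above the fold limit. At 6 months Mrpl17 had log2 signals of 7.04, 6.85, 7.25 and 7.26 in WT and 7.74, 7.81, 8.01 and 7.38 in rTg4510. The groups did not overlap, and the log2 fold change was 0.64 (SE 0.132, FDR 0.000675).

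Mrpl23, a protein at the exit of the tunnel through which nascent chains leave the ribosome, had the largest increase at 4 months. The values were 4.95, 4.96 and 4.63 in WT and 5.79, 5.93 and 5.61 in rTg4510, with a log2 fold change of 0.93 (SE 0.128, FDR 1.07e-05), or 1.91 fold. The genotypes lay apart at 4, 6 and 8 months, and the change was 0.54 at 6 months (FDR 0.000684) and 0.30 at 8 months (FDR 0.0941).

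Mrps36, a protein that has since been assigned to the alpha-ketoglutarate dehydrogenase complex and not to the ribosome, was called at 4, 6 and 8 months. At 6 months its log2 signal was 5.46, 5.58, 5.499 and 5.23 in WT and 6.12, 6.00, 6.07 and 6.00 in rTg4510. Every rTg4510 library lay above every WT library, and limma gave 0.60 on the log2 scale (SE 0.128, FDR 0.00082). It was 0.59 at 4 months (FDR 0.00502), where WT replicate 1 at 5.81 lay above rTg4510 replicate 1 at 5.77, and 0.60 at 8 months (FDR 0.00416).

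Mrpl23 and Mrps36 are uncertain, because the table also lists pseudogenes of both and the treatment of reads that match several places is not given in the sources used here. Mrpl23-ps1 had log2 fold changes of 0.95, 0.52 and 0.33 at 4, 6 and 8 months (FDR 2.67e-07, 5.64e-05 and 0.0162). Mrps36-ps1 had 0.72, 0.67 and 0.59 (FDR 0.000144, 3.72e-05 and 0.000847), and Mrps36-ps2 had 0.67, 0.43 and 0.66 (FDR 0.0364, 0.0997 and 0.0367). Pseudogenes of Mrpl48 and Mrpl27 are listed too, and neither passed the FDR at any age. At 6 months Mrpl48-ps had 0.35 (FDR 0.0744) and Mrpl48 had 0.34 (FDR 0.0315), so Mrpl48 carries the same limit. How many reads a gene shares with its pseudogene was not tested. The other called genes lie at chr15:55534095-55557312 (Mrpl13), chr10:81264722-81266926 (Mrpl54), chr11:120484637-120488754 (Mrpl12), chr1:37890477-37898338 (Mrpl30), chr7:105803782-105811087 (Mrpl17), chr7:142532467-142540747 (Mrpl23) and chr13:100735940-100744659 (Mrps36). None of the 8 called members overlapped another gene of the RefSeq table.

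**Figure D3:**
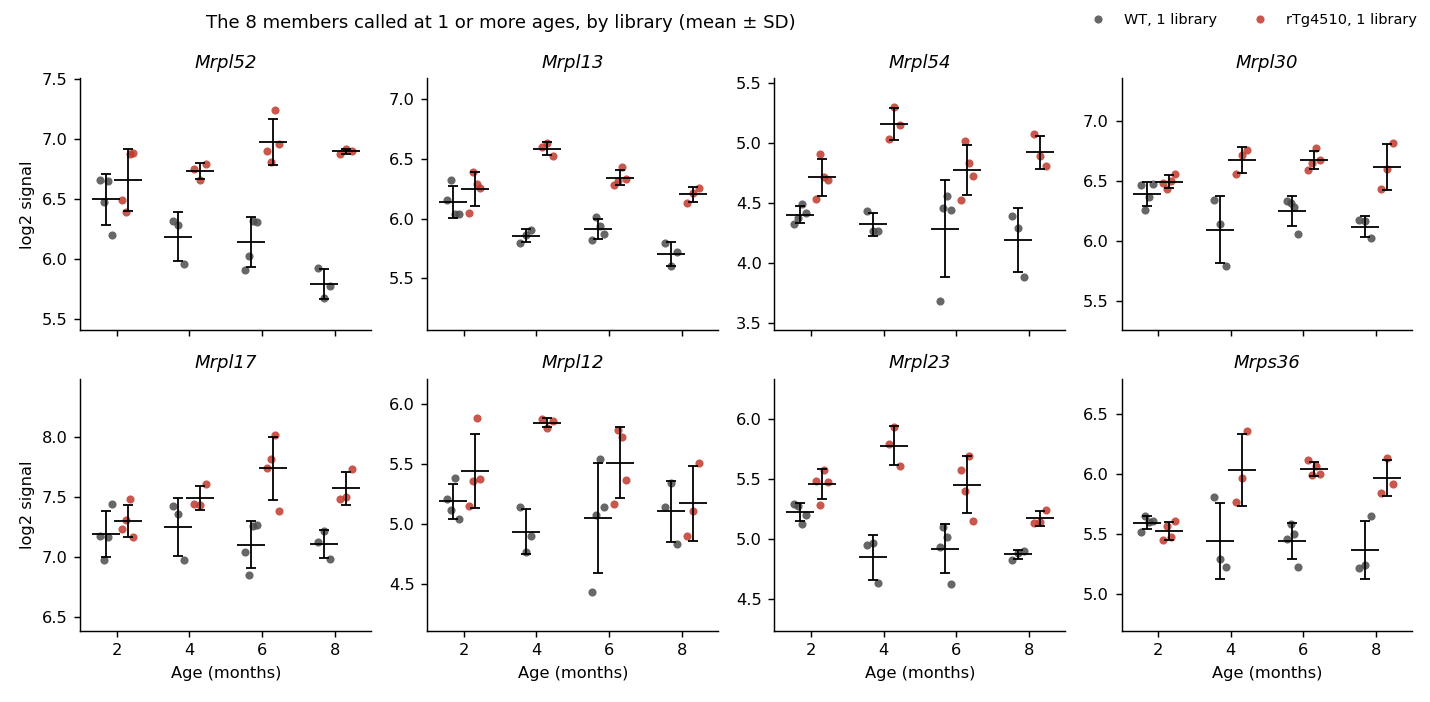
Log2 signal (y axis, the same span in each panel) of the 8 members called at 1 or more ages, against age in months (x axis), with 1 point per library, WT in grey and rTg4510 in red, and the group mean ± SD. The distance between genotypes is 0.16 at 2 months and 1.11 at 8 months for Mrpl52, whose contrast did not pass a test between neighbouring ages, and its value is largest at 4 months for Mrpl12, Mrpl13, Mrpl23, Mrpl30 and Mrpl54.

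The other members that rose did so by less than 1.5 fold. Mrpl42, a large subunit protein without a bacterial counterpart, and Mrps21, the relative of bacterial S21, rose at 4, 6 and 8 months. So did Mrpl13, Mrpl30, Mrpl52, Mrpl54 and Mrps36, which makes 7 members in all. How many of all genes rose at all of these ages was not counted. Mrpl42 and Mrpl33 were the 2 members that rose at 2 months, by 0.36 (SE 0.0831, FDR 0.00832) and 0.45 (SE 0.109, FDR 0.0131) on the log2 scale. Mrpl42, Mrpl33, Mrps21 and Mrpl39 are outside the rule for named genes and were chosen after their values were seen. At 8 months, where replicate numbers were taken to pair the libraries, Mrpl42 did not pass with the replicate block (FDR 0.0668). It was lost in 4 of the 6 fits without 1 library. Mrpl33 overlaps the gene Gm38424, and its increase was lost without rTg4510 replicate 4, WT replicate 2 or WT replicate 3 (highest FDR 0.0586). Mrpl12, Mrpl32 and Mrpl39 (3.85% of the members, against 1.33% of all genes) passed in the higher direction at 4 months and at no other age, and 8 members (10.3%, against 3.62%) at 6 months and at no other age. Passing at 1 age does not show that the ages differ, and of these 11 members Mrpl39 alone passed a test between ages of the genotype contrast. With the replicate block 3 of the 8, Mrpl48, Mrps14 and Mrps28, did not pass at 6 months (FDR 0.1, 0.0643 and 0.097). Of the 12, 19 and 11 members that passed the FDR at 4, 6 and 8 months, 7, 11 and 7 passed it in every fit that left out 1 library of that age.

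Only Mrps11 and Mrps5, of the small subunit, had an FDR under 0.05 in the lower direction. Mrps11 at 4 months was 5.62, 5.38 and 5.48 in WT and 5.06, 5.09 and 4.68 in rTg4510, with a log2 fold change of -0.55 (SE 0.192, FDR 0.0445). The genotypes lay apart, but 5 of the 6 fits that left out 1 library of this age gave no significance, with a highest FDR of 0.197. Only the fit without rTg4510 replicate 2 kept it. Mrps5, the relative of bacterial S5, which takes part in the accuracy of decoding, was 5.03, 4.78 and 5.19 in WT and 4.44, 4.56 and 4.83 in rTg4510 at 8 months. The groups overlapped in 1 library each, and the log2 fold change was -0.39 (SE 0.111, FDR 0.0123). The FDR rose above 0.05 without rTg4510 replicate 1 or WT replicate 3 (highest FDR 0.0852).

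Mrpl46, a large subunit protein of mitochondria only, had the smallest change at 6 months. Its log2 signal was 5.52 ± 0.222 in WT and 5.52 ± 0.0663 in rTg4510 (SD, n = 4 each), and the log2 fold change was -0.0018 (SE 0.148, FDR 0.994). It lies at chr7:78775341-78783089 on the minus strand and Mrps11 at chr7:78783131-78792988 on the plus strand, so that their starts face each other with 41 bases between them, which makes them the only 2 members less than 1000 bases apart. Mrpl46 differed by 0.04 at 4 months (FDR 0.916), the age at which Mrps11 was lower.

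The contrast of genotypes was then compared between ages. From 2 to 4 months it moved upward in 4 members (5.26% of all genes) and downward in 0 (2.08%). The difference was 0.62 for Mrpl13 (SE 0.104, FDR 0.000735), 0.70 for Mrpl23 (SE 0.17, FDR 0.0141), 0.66 for Mrps36 (SE 0.195, FDR 0.0423) and 0.41 for Mrpl39 (SE 0.116, FDR 0.0357). Mrpl13 alone kept an FDR under 0.05 in all 14 fits that left out 1 library of these ages. Mrpl23 lost it without WT replicate 4 of 4 months (FDR 0.0566), Mrpl39 in 7 of the fits and Mrps36 in 12. The limit of shared reads holds here too, since the contrast moved by 0.68 for Mrpl23-ps1 (limma, FDR 0.00245). It moved by 0.87 for Mrps36-ps1 (FDR 0.00198) and by 0.76 for Mrps36-ps2 (FDR 0.145). Between 4 and 6 months 0 members passed the FDR in limma's model (0.172% of all genes), with 7 at an unadjusted p under 0.05 (8.97%, against 8.15% of all genes). Between 6 and 8 months 0 passed (0% of all genes), with 6 at an unadjusted p under 0.05 (7.69%, against 4.52%).

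Within WT, 0 members passed the FDR from 2 to 4 months (0.0861% of all genes), from 4 to 6 months (0.113%) or from 6 to 8 months (0%) in limma's model, while 13, 4 and 10 had an unadjusted p under 0.05. These were 16.7%, 5.13% and 12.8% of the members, against 10.2%, 8.65% and 9.78% of all genes. All 10 of the last were lower at 8 months, where the change was above 0 in 26.9% of the members and in 38.4% of all genes. Within rTg4510, 5 members rose from 2 to 4 months (9.73% of all genes) and 0 fell (5.48%). The largest of these were Mrps36 with 0.51 (SE 0.138, FDR 0.0148), Mrpl32, a protein that is cleaved on import before it joins the ribosome, with 0.51 (SE 0.147, FDR 0.0219), and Mrpl13 with 0.34 (SE 0.0738, FDR 0.00308). From 4 to 6 months 0 members passed (1.73% of all genes), with 7 at an unadjusted p under 0.05 (8.97%, against 14% of all genes). From 6 to 8 months 0 passed (0.00538%), with 14 at an unadjusted p under 0.05 (17.9%, against 14.4%). These 14 were lower at 8 months, where the change was above 0 in 14.1% of the members and in 42.4% of all genes.

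Mrpl32 lay at 6.34, 6.28, 6.66 and 6.29 in the rTg4510 libraries of 2 months and at 7.02, 6.89 and 6.80 in those of 4 months. The ages did not overlap. In WT it was 6.54 ± 0.197 (SD, n = 4) and 6.39 ± 0.214 (n = 3), and its genotype contrast at 4 months was 0.51 (SE 0.157, FDR 0.0218). This was lost without rTg4510 replicate 1 or WT replicate 1 (highest FDR 0.114).

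Most of the members that rose had short transcripts. The length was taken as the median over the protein-coding GENCODE vM21 transcripts of a gene, and 36 members had up to 1000 bases. Of these, 17 rose at 6 months (47.2%), against 27.2% of the other protein-coding genes of that length. Of the 42 longer members 2 rose (4.76%), against 16.1% of the other longer genes. At 4 months 8 short members rose (22.2%, against 20.4% of the other short genes) and 3 longer ones (7.14%, against 11.1%). At 8 months 10 short members rose (27.8%, against 21.3%) and 0 longer ones (13.6% of the other longer genes).

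Across the 78 members, length and log2 fold change had a Spearman correlation of -0.25, -0.31, -0.46 and -0.42 at 2, 4, 6 and 8 months. Across 13685 protein-coding genes it was -0.06, -0.14, -0.17 and -0.13, and across the 37 complex I genes it was -0.28, -0.32, -0.46 and -0.36. Across 81 cytosolic ribosomal protein genes it was 0.25, 0.0073, 0.039 and -0.020. These are descriptions across genes measured in the same libraries, and genes are not independent replicates. With the length trend removed, as above, 11 members passed the FDR at 6 months in place of 19 and the median became 0.10. At 8 months 8 passed in place of 11, and the median became 0.03. Of all genes 3530 rose and 2848 fell at 6 months in that fit, in place of 3555 and 2777. At 8 months 2807 rose and 2066 fell, in place of 2967 and 1817. Mrpl52 still differed by 0.66 at 6 months and 0.92 at 8 months (FDR 0.000362 and 5.84e-05), and Mrpl13 by 0.65 at 4 months (FDR 3.18e-06).

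Sequence around the start was examined for short words bound by factors that are known to act on nuclear genes of mitochondria. There were 69 members that matched the RefSeq promoter table, with 75 windows of 300 bases. Each window held 250 bases before a start and 50 bases from it on. Most YY1 words of the members lay past the start. The called members Mrpl13 and Mrpl54 had no window. The word CCGGAAG of the ETS family, to which GABPA belongs, was in 34.7% of the member windows. It was in 15.9% of the 14144 windows of all 11108 matched protein-coding genes. For CGCATGCG of NRF1 the shares were 9.33% and 3.55%, and for AAGATGGC of YY1 16% and 3.99%. For CACGTG, the E-box, they were 9.33% and 9.43%, and for CCAAT 40% and 37.7%. A gene with several windows counts more than 1 time in these shares. By gene, the shares of the 69 members and of the 11108 genes were 37.7% and 18.6% for ETS and 10.1% and 4.09% for NRF1. They were 17.4% and 4.85% for YY1, 7.25% and 11.2% for the E-box and 39.1% and 42.85% for CCAAT. Both strands were searched, and the ETS and YY1 words can overlap by 3 letters. The sequences below are the 250 bases before the start of 3 called members, which hold an ETS word, both an ETS and an NRF1 word, and neither, with the words in capitals on the strand of the gene. They are credited to RefSeq (GRCm38.p6) and lie at chr14:54426659-54426908 on the plus strand, chr7:105811088-105811337 on the minus strand and chr1:37890227-37890476 on the plus strand.
Mrpl52: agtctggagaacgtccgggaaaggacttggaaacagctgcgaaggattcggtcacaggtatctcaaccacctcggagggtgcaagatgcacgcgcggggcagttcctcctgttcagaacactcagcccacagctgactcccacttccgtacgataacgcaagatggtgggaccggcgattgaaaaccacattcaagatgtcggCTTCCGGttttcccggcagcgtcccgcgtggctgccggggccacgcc
Mrpl17: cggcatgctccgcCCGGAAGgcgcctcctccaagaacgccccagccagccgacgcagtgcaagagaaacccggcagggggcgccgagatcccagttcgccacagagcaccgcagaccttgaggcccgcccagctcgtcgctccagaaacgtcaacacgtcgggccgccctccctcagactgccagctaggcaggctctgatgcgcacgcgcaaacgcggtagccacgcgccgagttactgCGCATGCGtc
Mrpl30: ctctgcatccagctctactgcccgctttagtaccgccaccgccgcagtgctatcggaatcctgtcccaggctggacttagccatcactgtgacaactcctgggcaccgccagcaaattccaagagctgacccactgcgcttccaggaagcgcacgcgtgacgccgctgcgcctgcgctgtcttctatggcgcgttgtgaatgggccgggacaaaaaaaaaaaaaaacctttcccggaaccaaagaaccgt

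In Mrpl52 a further ETS word starts at base 3 of the gene. A match is a run of letters and not a shown site.

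The members moved with little coherence within a group of libraries. After the group means had been removed, the 3003 pairs of members had a median correlation of 0.0518 over the 28 libraries. It was 0.167 over 666 pairs of complex I genes and 0.719 over 3321 pairs of cytosolic ribosomal protein genes. The median residual SD was 0.202, 0.165 and 0.141 for the 3 lists.

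The cytosolic ribosomal proteins, which form the ribosomes of the cytosol, changed more. Their median log2 fold change was 0.51, 1.06, 1.25 and 1.17 at 2, 4, 6 and 8 months, and 74, 79, 80 and 80 of the 82 genes rose. At 8 months 1 of them was called lower, with a log2 fold change of -1.54, and at the other ages 0 fell. For the 37 subunits of respiratory complex I, which join with subunits made on the mitochondrial ribosome, the median was 0.04, 0.34, 0.45 and 0.38, and 0, 17, 29 and 19 genes rose. The members had 0.04, 0.16, 0.18 and 0.13 at these ages. The difference between the lists was not tested.

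Of the 5 mitoribosomal proteins listed under other names, 1 rose at 4, 6 and 8 months. This was Aurkaip1, a small subunit protein, with 0.61, 0.35 and 0.41 (FDR 0.00403, 0.0418 and 0.0438). Of 28 genes for the assembly of the mitochondrial ribosome and the modification of its RNA, 1 rose and 0 fell at 4 months, 2 rose and 3 fell at 6 months, and 2 rose and 1 fell at 8 months. Noa1, a GTPase of small subunit assembly, rose by 0.64 at 4 months (FDR 0.00361). Mpv17l2, an assembly factor of the inner membrane, rose by 0.81 at 8 months (FDR 9.41e-05). The medians of these 28 genes were -0.01, -0.02, -0.01 and 0.05 at 2, 4, 6 and 8 months, and those that fell are only counted.

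Among 19 translation factors and related genes, 3 rose and 1 fell at 4 months, 3 rose and 2 fell at 6 months, and 1 rose and 2 fell at 8 months. Slirp, which binds mitochondrial mRNAs together with Lrpprc, rose by 0.91 at 6 months (FDR 8.28e-05), and Oxa1l, which inserts newly made proteins into the inner membrane, by 0.36 (FDR 0.000169). Qrsl1, a subunit of the enzyme that makes mitochondrial glutaminyl-tRNA, fell by 0.49 at 6 months (FDR 0.0118), and Gfm2, a recycling factor of the mitochondrial ribosome, fell by 0.41 at 4 months (FDR 0.000786).

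Of 25 genes for the maintenance and transcription of mitochondrial DNA and the processing of its RNA, 1 rose and 2 fell at 4 months, 2 rose and 1 fell at 6 months, and 1 rose and 3 fell at 8 months. Hsd17b10, a subunit of mitochondrial RNase P, rose by 0.75 at 6 months (FDR 0.000167). The list medians were -0.04, -0.09, -0.13 and -0.12 at 2, 4, 6 and 8 months, and the genes that fell are only counted. At 8 months 2 of the 25 genes were called lower and 0 higher. At 4 and at 6 months 1 was called higher and 0 lower. Among 11 regulators of mitochondrial biogenesis, 1 rose at 2, 4 and 6 months, 3 rose at 8 months, and 1 fell, at 6 months, with list medians of 0.09, -0.05, 0.05 and -0.02. Ppargc1b, a coactivator, rose by 1.13 at 6 months (FDR 2.23e-05) and by 1.69 at 8 months (FDR 9.9e-07). Gabpa, the DNA-binding subunit of the ETS factor named above, rose by 0.26 at 8 months (FDR 0.00536), and Gabpb2, of its partner subunits, fell by 0.16 at 6 months (FDR 0.0219). Of the 13 proteins encoded in mitochondrial DNA, 0 were among the genes measured.

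Markers of other cells and of division also moved between the groups. Of 20 genes of S phase and mitosis 12 rose at 4 months, where the log2 of their summed signal was 8.90 to 9.12 in WT and 9.69 to 9.78 in rTg4510, while 1 rose and 9 fell at 6 months. Of 5 neutrophil markers 0 passed at 4 months and 4 fell at 6 and at 8 months, with a log2 summed signal of 8.82 to 10.2 in WT and 7.19 to 7.87 in rTg4510 at 6 months. Of the 4 neuronal markers 2 fell at 6 months, with 6.05 to 6.58 in WT and 5.12 to 6.07 in rTg4510. Of the 10 microglial markers 2 rose and 5 fell at 4 months, 3 rose and 6 fell at 6 months, and 2 rose and 6 fell at 8 months. Of 4 lymphocyte markers 2 fell at 4 months, with 6.06 to 6.77 in WT and 5.06 to 5.80 in rTg4510. Of 6 astrocyte markers 1 fell at 4 months, 1 rose and 2 fell at 6 months, and 1 rose and 3 fell at 8 months, with 10.2 to 10.4 in WT and 9.49 to 9.77 in rTg4510 at 6 months. Of 5 endothelial markers 1 rose and 1 fell at 4, 6 and 8 months, of 4 border macrophage markers 1 fell at 6 months, and of 6 oligodendrocyte markers 1 fell at 8 months. The part of these cells in the changes of the members was not tested.

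The 4 libraries left out by the study had the lowest means over the members, 5.38 to 5.48, against 5.54 to 5.95 in the 28 others. In rTg4510 replicate 3 of 4 months Mrpl13 was at 4.24 and Mrpl52 at 8.67, far from the 6.53 to 6.63 and 6.66 to 6.79 of the rest of its group. With all 32 libraries, 4 members passed the FDR at 6 months in place of 19. None of the 4 added libraries is of 6 months, and the median over the members stayed at 0.18. Of all genes 2223 rose and 1495 fell at 6 months in that fit, in place of 3555 and 2777.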

How the data were processed

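RNAseq of CD11b-positive forebrain cells was analysed from 32 libraries, grouped by the genotype and age in the labels. The authors summed exon reads, dropped any exon that was under 10 counts in over 80% of the samples, obtained gene signals from a robust linear model over exons, and deposited them as median-normalized log2 values. The build per the labels is GRCm38, and the aligner is not given in the sources used here. Read totals per library were not analysed here; the study states 1 approximate depth for all. p-values measure the spread between libraries of pooled animals.

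Gene names came from the RefSeq table of GRCm38.p6 (95.9% of 18588 Entrez numbers matched). In R 4.3.3, limma 3.58.1 (data.table version 1.17.8) fitted 8 group means to the 28 libraries kept by the study, with unmoderated variances (20 degrees of freedom), two-sided tests and Benjamini-Hochberg FDR per contrast. No gene was filtered out. The fit was tested on simulated data. Figures and sequences were handled with Python 3.11.15, numpy 2.4.6 and matplotlib 3.10.9.

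The members and all lists were chosen with earlier results of these data known. Named members are those called at any age and those past the FDR in the less common direction. Also named are the 3 largest past the FDR in each age contrast or difference of contrasts. The member of smallest change at 6 months is named too. Of other lists, up to 3 genes past the FDR are named at 6 months and at other ages. In the lists for assembly and for mitochondrial DNA the genes that fell are only counted. Across genes, the deviations of libraries sharing a number from their group means had r values of 0.0649 to 0.167 at 2 months. They were -0.0999 to 0.124 at 4, 0.131 to 0.153 at 6 and 0.15 to 0.291 at 8 months. Libraries of different numbers had -0.194 to 0.0816, -0.0709 to 0.154, -0.127 to 0.0913 and -0.259 to -0.0281 at 2, 4, 6 and 8 months. The numbers were taken to pair the libraries at 6 and 8 months only, on the values alone. Whether they also do so at 2 months is not known. Alternatives were the fit with the replicate block, only the compared groups, all 32 libraries, moderated variance, quantile normalization, centring on protein-coding genes, a filter at the 25th percentile of signal, removal of the transcript length trend and leaving out each library.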

Additional observations from a re-analysis of the deposited data

Results flagged for a closer look

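In groups of 4 libraries, the distance of the farthest library to its nearest neighbour was compared with the range of the group (Dixon's criterion), for the mean over the members and the 12 named members. Of 52 groups of values 4 exceeded it, where chance flags about 1 in 20. These were Mrpl30 in WT at 6 months (0.830, replicate 4 at 6.06 against 6.29 to 6.33 in the others), Mrpl54 in WT at 6 months (0.868, replicate 1 at 3.68 against 4.44 to 4.56), Mrps11 in rTg4510 at 6 months (0.838, replicate 3 at 5.33 against 4.62 to 4.74) and Mrpl32 in rTg4510 at 2 months (0.854, replicate 3 at 6.66 against 6.28 to 6.34).

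The genotype contrast differed between 2 and 4 months, by limma's test of the difference, for Mrpl13 (0.62), Mrpl23 (0.70), Mrps36 (0.66) and Mrpl39 (0.41). Mrpl23 and Mrps36 carry the limit of their pseudogenes given above.

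Among the libraries left out by the study, the mean over the members was higher in rTg4510 than in WT by 0.0589 at 4 months and by 0.0879 at 8 months, with 1 library on each side and no test.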

How the results depend on the processing

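Fits of only the compared groups left 0, 4, 11 and 3 members past the FDR at 2, 4, 6 and 8 months. They left 1 called at 8 months and 0 past the FDR for rTg4510 from 2 to 4 months. Of all genes 440, 1480, 2959 and 1777 rose at these ages, against 885, 2625, 3555 and 2967 in the main fit. Those that fell were 114, 735, 2165 and 713, against 236, 1692, 2777 and 1817. At 8 months 1854 of all genes were called, against 2950. Within rTg4510 from 2 to 4 months 805 rose and 424 fell, against 1809 and 1019. All 32 libraries left 0, 4 and 4 members at 2, 6 and 8 months. They left 1 for the difference from 2 to 4 months and 3 for rTg4510 from 2 to 4 months. Of all genes 260, 2223 and 2116 rose at 2, 6 and 8 months in that fit, and 54, 1495 and 1207 fell. For the difference 571 moved upward and 155 downward, against 977 and 386 in the main fit. Within rTg4510 1283 rose and 704 fell. Quantile normalization called 5 members at 8 months, with 3195 of all genes called against 2950 in the main fit. Without the transcript length trend (added after seeing the data) 1 member was called at 6 and at 8 months. At 6 months 11 passed, and the medians were 0.104 at 6 and 0.0342 at 8 months. Of all genes 3609 and 2918 were called at 6 and 8 months, against 3689 and 2950. Leaving out 1 library in turn gave 0 to 1 called and 1 to 3 past the FDR at 2 months, medians of 0.156 to 0.234 at 6 and 0.0818 to 0.210 at 8 months, 2 to 5 called at 8 months, 1 to 6 for the difference from 2 to 4 months and 2 to 5 for rTg4510 from 2 to 4 months. Mrpl46 at 6 months, near 0, changed sign with quantile normalization (0.00495) and ranged from -0.104 to 0.0697 without 1 library. The replicate block gave 2, 12, 19 and 11 members past the FDR at 2, 4, 6 and 8 months and 3 for the difference. These were not always the same genes. At 6 and 8 months, where the numbers were taken to pair the libraries, 15 of 19 and 8 of 11 were kept. At 2 and 4 months, where they were not taken as pairs, 2 of 2 and 11 of 12 were kept. The filter at the 25th percentile passed 76 of 78 members. What depth limits was not analysed here, since read totals per library were not used. The causes of these changes were not tested.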
